A study of Bos grunniens with 6 samples.

Results

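*SYNE2*, *MACF1*, *DST* and *UTRN* encode 4 very large proteins that tie the cytoskeleton to the nucleus, to adhesion sites and to the cell membrane. They are described here by 55 of the 16186 m6A peaks listed for cattle-yak testis, namely every peak whose gene symbol is one of these 4, and by the input expression of the 6 gene identifiers that carry these symbols. The members were chosen by the number of listed peaks, since several of them were already known to stand among the genes with the most, so their peak numbers are given as a description, without a test. The testes of 3 healthy cattle-yaks, male hybrids of yak and cattle that are known to be sterile, were obtained by castration at an age of 5 years. The animals are named TES5, TES6 and TES7. MeRIP-seq sets fragments of RNA captured by an anti-m6A antibody (IP) against uncaptured RNA of that tissue (input), and was run with 1 IP and 1 input library per animal, 6 libraries in all. No other group was analysed here. The peak list is 1 list for the 3 animals, with neither a score nor a value per animal, so a peak has no replicate error, and the depth behind a single peak or FPKM value is unknown.

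Nesprin-2, the product of *SYNE2*, sits in the outer nuclear membrane, where it meets SUN proteins of the inner membrane to form the LINC complex, and its giant form reaches actin through a long rod of spectrin repeats. MACF1 and DST (dystonin) are spectraplakins, which join actin filaments to microtubules, and one form of DST anchors keratin filaments at hemidesmosomes. UTRN (utrophin) is a relative of dystrophin that links actin to the dystroglycan complex at the membrane. In the testis, Sertoli cells are known for dense actin bundles at their junctions with germ cells. The m6A mark is placed on adenosines of mRNA by the METTL3 and METTL14 methyltransferase and is known to be frequent near stop codons and in long internal exons.

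The 55 peaks comprised 19 on *SYNE2*, 17 on *MACF1*, 13 on *DST* and 6 on *UTRN*. Every member identifier carries a peak by the way it was chosen. Among all 20953 identifiers with an FPKM value, 41.9% carried at least 1 listed peak. Counted per identifier, *SYNE2* with 18 peaks and *MACF1* with 17 headed the list, followed by *PCDHGA4* with 14, *DST* with 13 and 3 identifiers with 12, whereas the main identifier of *UTRN* had 5. The genes were also unlike each other in size. The listed transcript of *SYNE2* spanned 300983 bp with 116 exons and that of *UTRN* 593753 bp with 76 exons. Per 100 kb of gene the numbers were 6.60 peaks for *MACF1*, 6.31 for *SYNE2*, 2.86 for *DST* and 1.01 for *UTRN*. Per 10 exons, with the peaks of the main identifier alone, they were 1.65, 1.55, 1.37 and 0.658, so that *DST* lay near *SYNE2* by exons and well below it by genomic length.

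**Figure D1:**
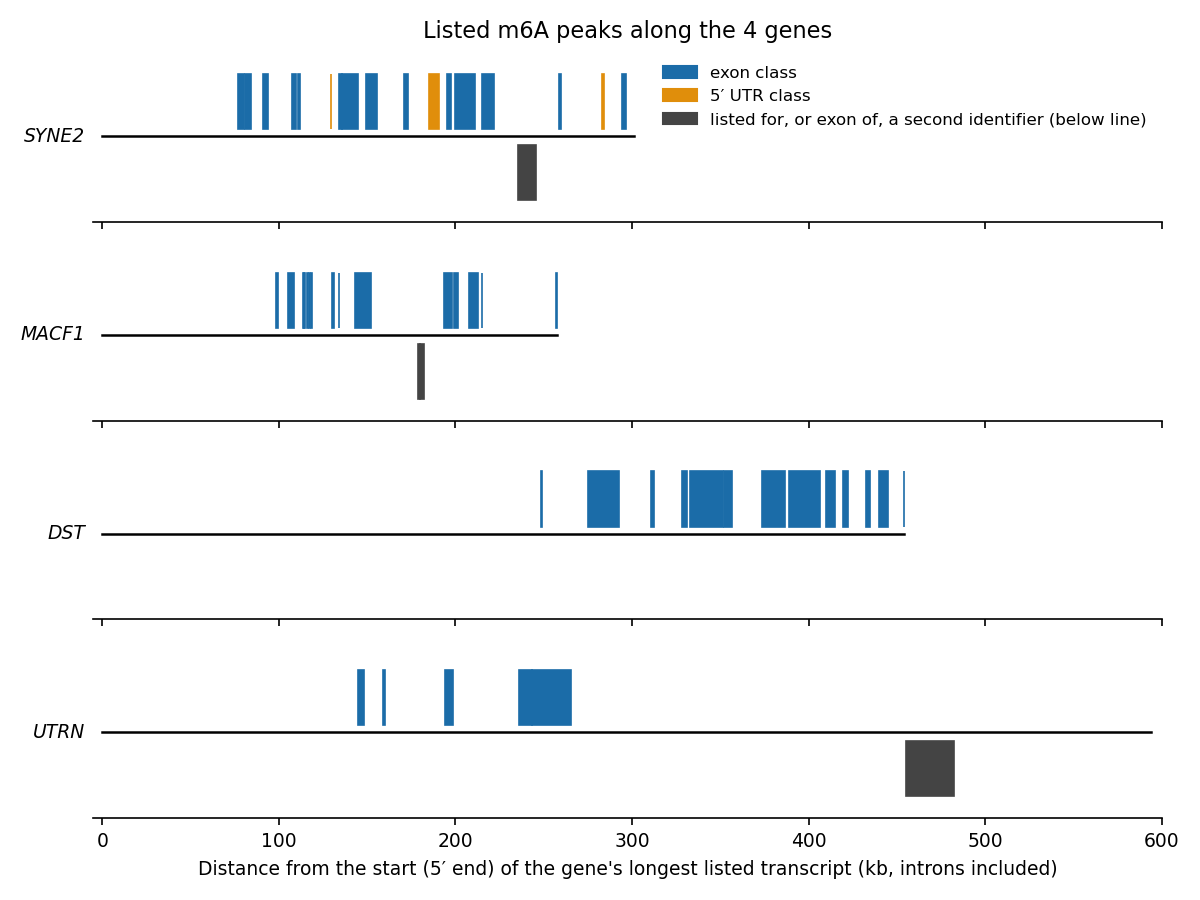
Listed peaks along each gene, drawn to scale as blocks against the distance in kb from the start of the longest listed transcript (black line), with blue for the exon class, orange for the 5′ UTR class and grey, below the line, for peaks that involve a second identifier. The first 76.656 kb of *SYNE2*, 98.55 kb of *MACF1*, 248.413 kb of *DST* and 144.69 kb of *UTRN* carried no peak.

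*SYNE2* (ENSBGRG00000011817) lies on the plus strand of chromosome 11 from 65556636 to 65857618 (LU_Bosgru_v3.0). Its peaks began 76656 bp inside the gene, at exon 19 of 116, and ended at exon 109, 4381 bp before the end of the transcript. The exon class peaks on the 116-exon transcript lay in exons 19, 22, 29, 38, 42, 50, 51, 54, 62, 73, 77, 82, 93, 98 and 109. No exon of that transcript was named more than once, but the annotation names a single exon for each peak. The wider peaks may reach further exons. With the gene cut into 3 stretches of equal length from the 5′ end, 3, 9 and 7 peaks fell into them. The peaks thus ran through the middle and the 3′ side of the gene, and the gaps between neighbouring merged peaks were 6409 bp in the median, with a range of 99 to 23127 bp. Together they covered 73282 bp, or 24.3% of the span, the largest share of the 4 genes with peaks assigned by symbol. A 36323 bp peak annotated to an exon of *MACF1* but listed for another gene is left out by that rule. Coverage of *MACF1* with it was not computed, so the ranking holds for this assignment only.

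Of the 19 *SYNE2* peaks, 3 were annotated to a 5′ UTR although they lay 129.473, 185.234 and 282.717 kb inside the gene, with widths of 201, 5546 and 1664 bp. The annotation names no transcript for them, so it is not known whose 5′ UTR is meant. These were the only UTR peaks of the 4 genes. A second identifier with the same symbol, ENSBGRG00000012571, is a 1002 bp transcript inside the main gene on the same strand (chromosome 11, 65796768 to 65797769). Its only peak was 10169 bp wide, contained that whole transcript, and was annotated to exon 93 of the main gene. Conversely, a 183 bp peak listed for the main gene (65796950 to 65797132) was annotated to exon 1 of 2 of the small identifier and lay inside the 10169 bp peak. The 2 listed peaks at this place therefore overlap.

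*MACF1* (ENSBGRG00000001404) is a minus-strand gene of chromosome 3, positions 116231746 to 116489202, a span of 257457 bp. All 17 peaks were of the exon class, and they were the narrowest of the 4 genes, with a median of 844 bp and 9 of 17 (52.9%) at most 1000 bp wide. The first peak, from the 5′ side, was 98550 bp inside the gene at exon 29 of 95. The last was a 201 bp peak in exon 95 of 95, only 50 bp from the transcript end, and 42095 bp separated it from the peak before it. Of the 17 peaks, these end peaks included, 10 were annotated to the 95-exon transcript, 5 to a 103-exon transcript and 2 to a gene nested inside *MACF1*.

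The 5 peaks on the 103-exon transcript were all assigned to its exon 38. They were 550, 451, 700, 501 and 750 bp wide in 5′ to 3′ order and stood within 5046 bp (chromosome 3, 116370506 to 116375551), of which they covered 58.5%. The gaps between them were 299, 848, 848 and 99 bp. Exon 38 must therefore be at least 3748 bp long, since it has to reach from the near edge of the first of these peaks to the near edge of the last. Several peaks in 1 exon were rare in the list: of 10409 exons that were assigned any peak, 92.8% had 1, and 20 (0.192%) had 5 or more, with a maximum of 7. A 1609 bp peak assigned to exon 38 of the 95-exon transcript lay 11158 bp further along.

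The nested gene ENSBGRG00000005001 has no symbol and no FPKM value here. It spans 6046 bp on the same strand (chromosome 3, 116304872 to 116310917). Its exon 1 of 9 was assigned 2 peaks listed for *MACF1* (844 and 2130 bp) and 1 of its own (448 bp), all within 3866 bp and covering 88.5% of it. A further peak listed for this gene was 36323 bp wide (116297769 to 116334091), was annotated to exon 52 of 95 of *MACF1*, and contained both of those *MACF1* peaks. It is not counted among the 17 or in the share of *MACF1* covered by peaks.

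*DST* (ENSBGRG00000024977) is a minus-strand gene of chromosome 24, positions 33311713 to 33766002, a span of 454290 bp. By genomic length, introns included, its peaks were shifted furthest to the 3′ side. By exon number this does not hold for the first peak, which was assigned to exon 20 of 95 on *DST* and to exon 29 of 95 on *MACF1*. The whole sets of peaks were not compared by exon number, since 9 of the 13 *DST* peaks were numbered on another, shorter transcript. From the 5′ end, the first 248413 bp (54.7% of the span) carried no peak, and the 3 equal stretches held 0, 2 and 11 peaks. All 13 were of the exon class. The annotation assigned 4 of them to the 95-exon transcript (exons 20, 35, 43 and 50) and 9 to a transcript of 44 exons that shares its 3′ end and spans 102941 bp (33311713 to 33414653).

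The 2 stretches of *DST* differed in peak density per genomic length, introns included. Within the 102941 bp of the 44-exon transcript lay the midpoints of 8 peaks, or 7.77 per 100 kb, and peaks covered 50.6% of the sequence. The 351349 bp upstream held 5 peaks, or 1.42 per 100 kb, with 11.8% covered. Exons are also denser at the 3′ side: the shorter transcript has 44 exons in 102941 bp, the longer one 95 in 454290 bp. No density per exon was computed for the 2 stretches. Exon 1 of 44 was assigned 2 peaks of 18904 and 4751 bp, which lay 199 bp apart, and nearly all of the wider one was upstream of that transcript's start. The last exon, 44 of 44, carried a 251 bp peak that ended exactly at the 3′ end of the gene. *DST* had 4 peaks over 10000 bp (13228 to 18904 bp), and its median width was 4751 bp.

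*UTRN* (ENSBGRG00000020833) is a minus-strand gene of chromosome 10, positions 5296910 to 5890662, and with 593753 bp it has the longest span and the fewest peaks of the 4. Its 5 peaks were assigned to exons 8, 15, 24, 39 and 40 of 76, with widths of 3735, 1367, 4260, 7327 and 21745 bp. The last 2 were separated by 148 bp. No peak of the main identifier was assigned to an exon beyond 40, but the 21745 bp peak named for exon 40 may reach further exons. A second identifier with the symbol, ENSBGRG00000021598, is a single-exon transcript of 1086 bp on the opposite strand (5411495 to 5412580). It had a peak of 27538 bp (5408196 to 5435733), the widest of the 55 and 25.4 times the length of that transcript, while its FPKM was listed at 0 in all 3 animals. It lay 189597 bp past the exon 40 peak. With it, peaks covered 11.1% of the *UTRN* span.

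**Figure D2:**
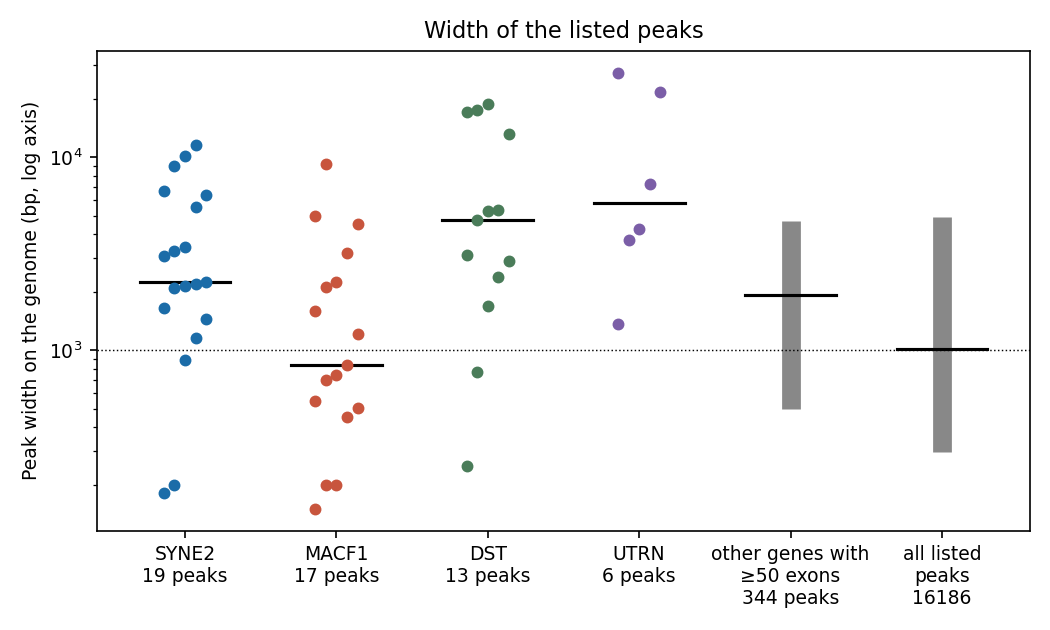
Peak width on the genome in bp (log axis) for each member, 1 point per peak with the median as a black line, beside the median and quartiles (grey bars) of the 344 peaks on other genes with at least 50 exons and of all 16186 peaks. The dotted line marks 1000 bp, and the medians run from 844 bp for *MACF1* to 5793.5 bp for *UTRN*.

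Widths are counted on the genome, introns included. The 55 peaks were 151 to 27538 bp wide. Their median width was 2397 bp, and the quartiles were 1025 and 5443 bp. The median was 1022 bp for all listed peaks and 1940.5 bp for the 344 peaks of the other 112 identifiers with at least 50 exons. Narrow peaks, those not above 1000 bp, were 25.5% of the members' peaks (Wilson 95% interval 15.8% to 38.3%), 49.8% of all peaks and 36.6% of those on other many-exon genes (31.7% to 41.8%). Peaks over 10000 bp made up 14.5%, 14.4% and 6.40% in the same order. The intervals cover counting error only, and peaks on 1 gene are not independent, so the intervals may be too narrow. Within the 4 genes the share of narrow peaks ran from 52.9% on *MACF1* to 0 of 6 on *UTRN*.

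By class, 52 of 55 member peaks (94.5%, interval 85.1% to 98.1%) lay in exons, against 70.3% of all peaks and 94.8% (91.9% to 96.7%) of the peaks on the other genes with at least 50 exons. None of the 55 was of the 3′ UTR class, which allows a share of up to 6.53%. That class held 20.8% of all peaks and 2.33% of those on other many-exon genes, so the members' upper limit lay below the share in the whole list and above the share on genes of like exon number. The last-exon peaks of *MACF1* and *DST* lay at or close to the transcript end and were still classed as exon. Whether these transcripts have an annotated 3′ UTR was not examined, so the absence of the class may not describe the peaks themselves. No test was made of these differences. Last exons took 3 of the members' 52 exon class peaks (5.77%): exon 95 of 95 of *MACF1*, exon 44 of 44 of *DST*, and the only exon of the second *UTRN* identifier. If each peak fell on any exon of its transcript alike, the share would be 4.46%. Over all exon class peaks 18.2% were in last exons, with 16.9% by the same reckoning, and on the other many-exon genes it was 2.76% with 2.08%.

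**Figure D3:**
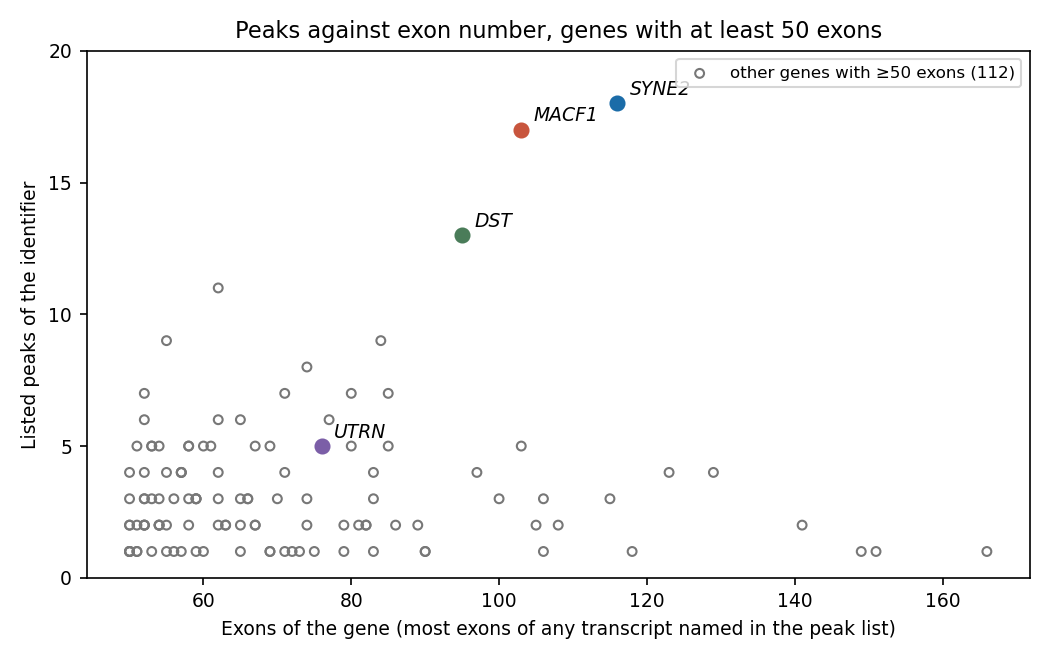
Listed peaks per identifier (vertical axis) against the number of exons (horizontal axis) for the 116 identifiers with at least 50 exons, with the 4 members as filled points. *SYNE2* (116 exons, 18 peaks), *MACF1* (103, 17) and *DST* (95, 13) lie above the 112 other identifiers, which have at most 11 peaks, and *UTRN* (76, 5) lies among them.

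Exon numbers are known here only for genes with a peak, so genes with many exons and no peak are missing from this comparison. The other 112 identifiers with at least 50 exons had 3 peaks in the median, 28 of them had 1, and 25 had 5 or more. The most was 11, on *KMT2C*, a histone methyltransferase gene, which at 1.77 peaks per 10 exons was above all 4 members on that scale. The median over these 112 was 0.385. Their peaks covered 5.05% of the gene in the median. Counted in the same way, with the peaks of the main identifier alone, coverage was 21.0% for *SYNE2*, 20.6% for *DST*, 13.0% for *MACF1* and 6.47% for *UTRN*, so that *UTRN* lay near that median. The members were picked for their number of peaks, so this contrast follows from the choice.

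Nearest to *MACF1* in exon number were *MDN1* (103 exons, 5 peaks), the calcium release channel gene *RYR2* (105, 2) and the ubiquitin ligase gene *UBR4* (106, 3), which shares its place with 2 identifiers without a symbol (100 exons with 3 peaks and 106 with 1). Nearest to *UTRN* were *HECTD4* (77 exons, 6 peaks), *FRAS1* (75, 1) and *BIRC6* (74, 8), with *VPS13A* (3 peaks) also at 74 exons. For *DST* they were 2 identifiers without a symbol (97 and 100 exons, 4 and 3 peaks) and the lipoprotein receptor gene *LRP1* (90, 1), level with *ADGRV1* (90, 1), and for *SYNE2* 3 identifiers without a symbol (115, 118 and 123 exons), with 3, 1 and 4 peaks. Ties were settled by more peaks, then by identifier. Input levels varied among these genes: *UBR4* had 19.4 ± 0.491 FPKM and *LRP1* 27.7 ± 4.70, near or above the mean of *DST*, whereas *ADGRV1* had 0.560 ± 0.139 and *RYR2* 0.947 ± 0.245 (SD, n = 3).

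**Figure D4:**
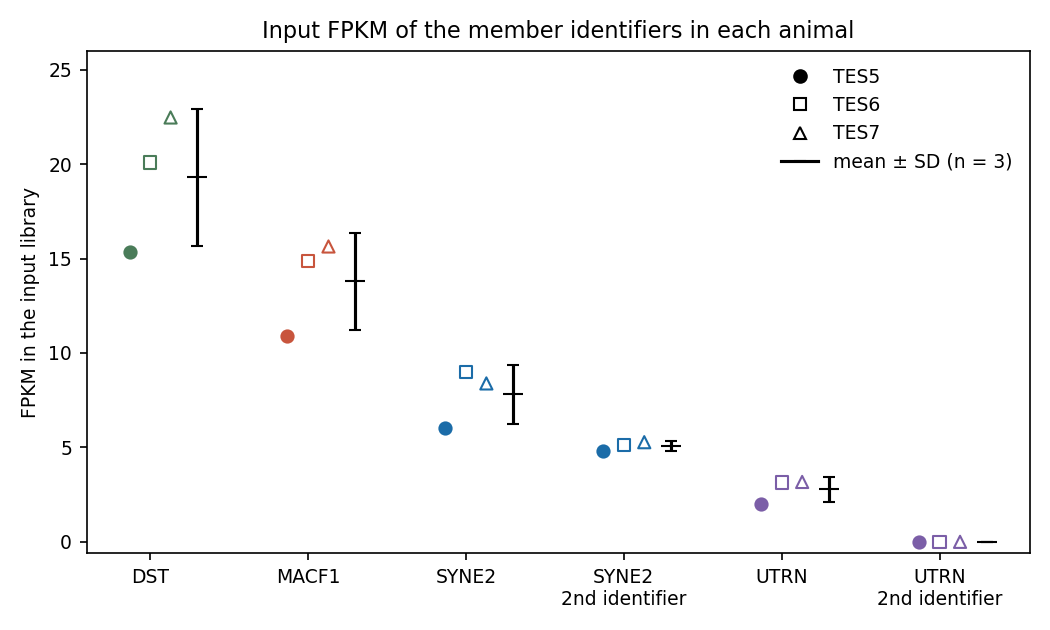
Input FPKM of the 6 member identifiers, with 1 symbol per animal (filled circle TES5, open square TES6, open triangle TES7) and the mean ± SD (n = 3) in black to the right. The 4 main identifiers fall in the order *DST*, *MACF1*, *SYNE2*, *UTRN* in every animal, and TES5 is the lowest of the 3 for each identifier above 0.

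All 4 genes were expressed in the input libraries, at levels scaled by length and library size (FPKM). *DST* had 15.4 FPKM in TES5, 20.1 in TES6 and 22.5 in TES7, with a mean of 19.3 ± 3.62 (SD, n = 3). *MACF1* had 10.9, 14.8 and 15.6 (13.8 ± 2.55). The spectraplakin genes were thus the higher pair, at or above 84.9% and 79.4% of all identifiers. *SYNE2* had 6.01, 9.01 and 8.39 (7.80 ± 1.58), and its small second identifier 4.80, 5.13 and 5.28 (5.07 ± 0.246). *UTRN* had 2.01, 3.14 and 3.17 (2.77 ± 0.660). *UTRN* was near the middle of all identifiers, at or above 53.1% of them.

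The order was the same within each animal. *DST* exceeded *MACF1* by 1.41, 1.35 and 1.44 times in TES5, TES6 and TES7, but the values overlapped between animals, since *DST* in TES5 (15.4) was below *MACF1* in TES7 (15.6). *MACF1* exceeded *SYNE2* by 1.81, 1.65 and 1.86 times and *SYNE2* exceeded *UTRN* by 2.99, 2.87 and 2.65 times, in both cases without overlap. From *UTRN* to *DST* the ratio was 7.04 ± 0.621 (SD, n = 3). With 3 values per gene an exact permutation test could not reach the usual threshold, and none was run. The order of expression was not the order of peak number: *SYNE2*, with the most peaks, had less than *MACF1* and *DST*.

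All 5 identifiers above 0 were lowest in TES5, as were 37.4% of the 12144 identifiers whose mean FPKM was 1 or more. Relative to its own mean over the 3 animals, the TES5 level was 79.6% for *DST*, 78.9% for *MACF1*, 77.1% for *SYNE2* and 72.5% for *UTRN*, but 94.6% for the second *SYNE2* identifier. The median over all 12144 identifiers was 100.2% in TES5. The list of other very large proteins was also low there, with 21 of 30 genes lowest in TES5, a median of 88.7% and sums of 288, 356 and 362 FPKM in TES5, TES6 and TES7. The coefficients of variation were 18.5% to 23.8% for the 4 main identifiers, against a median of 12.9%. The 5 values come from the same 3 libraries, are not independent of each other, and were given no test.

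**Figure D5:**
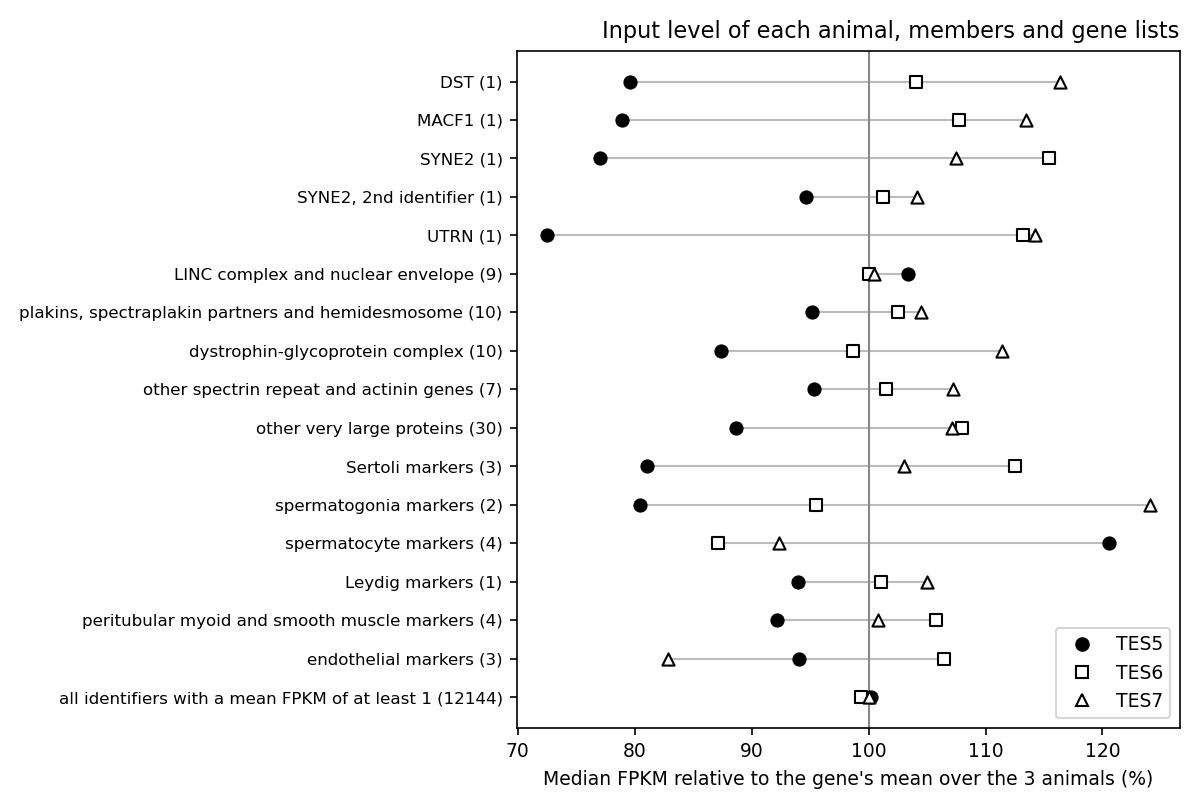
Median FPKM of each animal as a percentage of each gene's own mean over the 3 animals (horizontal axis), for the member identifiers and for the genes of each list whose mean FPKM was 1 or more (number in brackets). TES5 (filled circle) is at 72.5% to 79.6% for the 4 main identifiers, 81.1% for the Sertoli markers and 120.5% for the spermatocyte markers.

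Markers of the testis cell types also differed between the animals. The level of a Sertoli gene set (*SOX9*, *FSHR* and *WT1*, the 3 of 7 markers that could be matched to an identifier) summed to 56.9, 69.9 and 67.8 FPKM in TES5, TES6 and TES7. All 3 were lowest in TES5, as were 37.4% of all identifiers whose mean FPKM was 1 or more. The spermatocyte markers *SYCP1*, *SYCP2*, *SYCP3* and *DMC1*, 4 of 6, serve meiotic chromosome pairing and recombination. They went the other way, with sums of 57.5, 35.9 and 43.7 FPKM and none lowest in TES5. *SYCP2* and *DMC1* stand for 4 and 3 identifiers in the peak list, and 1 of each entered the sums. Of 7 spermatogonia markers, *ZBTB16*, *KIT* and *GFRA1* were matched and summed to 15.8, 18.9 and 24.2 FPKM. The 4 peritubular myoid and smooth muscle markers *ACTA2*, *MYH11*, *CNN1* and *DES* summed to 287, 326 and 299 FPKM. For the 3 endothelial markers *PECAM1*, *CDH5* and *VWF* the sums were 7.83, 8.59 and 6.71 FPKM. *STAR*, the only matched Leydig marker of 5, was at 100.2, 107.7 and 111.9 FPKM. None of the 6 spermatid markers could be matched. No matched marker was at 0 FPKM in any animal. The part of these cell type markers in the members' levels was not tested, and in tissue RNA fewer cells of a type and less RNA per cell cannot be told apart.

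The partners of the 4 genes were followed through lists of genes. For the list counts of symbols with a peak, the nearest share over all features is 41.9% of identifiers with an FPKM value. In the LINC complex and nuclear envelope list, 10 of 15 symbols had a peak, with 19 peaks in all and at most 4 per gene, on *SYNE3*, another nesprin gene, and *TMPO*, a lamina-associated protein gene. The SUN partners of nesprins, *SUN1* (16.8 ± 0.142 FPKM) and *SUN2* (35.3 ± 3.72 FPKM; both SD, n = 3), had 1 peak each and higher FPKM than *SYNE2*. No peak carried the symbol *SYNE1*. Of the 9 genes whose mean FPKM was 1 or more, 4 were lowest in TES5, against 37.4% of all such identifiers.

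Among plakins, spectraplakin partners and hemidesmosome genes, 13 of 21 had a peak, 42 peaks in all, beside 41.9% over all identifiers with an FPKM value. *DSP*, the desmosomal plakin gene, had 10 at 2.62 ± 0.849 FPKM, and *PLEC*, which encodes the linker plectin, had 6 at 11.4, 12.3 and 12.3 FPKM in TES5, TES6 and TES7. The microtubule-end genes *CLASP1*, *CAMSAP2* and *MAPRE1*, whose products work with spectraplakins, had 2, 3 and 1. In the dystrophin-glycoprotein complex list 11 of 20 had a peak, 19 in all, with at most 3, on *DTNA*, which encodes a dystrobrevin, at 2.94 ± 0.567 FPKM. *DAG1*, which encodes the dystroglycan that utrophin binds, had 2 peaks at 29.4 ± 7.04 FPKM. No peak carried the symbol *DMD*. In TES5, 6 of 10 and 7 of 10 genes of these lists whose mean FPKM was 1 or more were lowest, with the same 37.4% over all identifiers.

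Among other spectrin repeat and actinin genes, 8 of 14 had a peak, 31 in all, again beside 41.9% over all identifiers with an FPKM value. *SPTB*, the erythroid spectrin gene, and *KALRN* had 6 each, while *SPTAN1* (73.8 ± 3.04 FPKM) and *SPTBN1* (49.6 ± 4.96 FPKM), the widely expressed spectrins, had 5 each. Among other very large proteins, 33 of 54 had a peak, 161 in all, with 12 on *KMT2C* over 2 identifiers, 11 on *ALMS1* and 10 on *AKAP13*. As on the members, 3′ UTR peaks were few among the giants (2 of 161). There were 4 of 19 in the nuclear envelope list, near the 20.8% of all listed peaks. Of the 7 spectrin and actinin genes whose mean FPKM was 1 or more, 4 were lowest in TES5, against 37.4% of all such identifiers. The lists were not tested against other genes, and a symbol that was not found may carry no peak or be named otherwise in the annotation.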

How the data were processed

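MeRIP-seq libraries of 3 cattle-yak testes (IP and input, 6 libraries) were examined. Per the labels, reads were trimmed with Trimmomatic and aligned with HISAT2 2.0.4. The authors removed ribosomal RNA reads with SortMeRNA, called peaks with MeTDiff against LU_Bosgru_v3.0 and annotated them with ChIPseeker. How calls were joined into the 1 deposited list is not given in the sources used here. The authors deposited FPKM values for the input libraries. The FPKM program is not given in the sources used here, and single reads could not be recovered from the values. Peaks were taken as listed, without a new call. Their numbers, widths, classes, exon numbers and union on the gene were counted, with Wilson 95% intervals for shares. FPKM was summarised as mean ± SD over the 3 animals, with no test. A gene list entry could be matched only where the peak list names its symbol, and 2 entries are not reported here and were left out of the counts and sums.

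The members, gene lists and comparisons were chosen with earlier results of these data known. The genes named are the 4 members, the 3 identifiers nearest to each in exon number and up to 4 genes with most peaks from each list. The matched markers are named in full. *PCDHGA4*, *CEP290*, *DNAH11*, *TPR*, *AKAP9* and genes tied in exon number were named after their values were seen. The same holds for the named list genes with fewer peaks (*SUN1*, *SUN2*, *CLASP1*, *CAMSAP2*, *MAPRE1*). Alternatives were another gene assignment, merged peaks, 1 identifier per symbol, peaks of at most 1000 bp, members or animals left out, rescaled FPKM and other averages. Python 3.11.15, numpy 2.4.6, pandas 2.3.3 and SciPy 1.17.1 were used, after tests on simulated data. A genome sequence of this build was not used here, so no sequence or motif was examined.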

Additional observations from a re-analysis of the deposited data

How the results depend on the processing

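Of 78 recomputed values, 68 kept close to the value reported. For shares, the median width and FPKM this meant within counting error or the SD between animals. For peak numbers, coverage and the gene list count a fixed fold limit was used instead. The order of the 4 main identifiers by FPKM was the same in 7 of 7 settings. That order holds within every animal, so rescaled libraries, log averages or fewer animals could not have altered it. By less than the SD between animals moved 35 of 35 FPKM values, which are part of the 68. With 3 animals, the settings that drop 1 of them could not exceed this limit, whatever the values. The kept order and these settings therefore say nothing about how stable the FPKM results are. With peaks of at most 1000 bp alone, the numbers fell to 3 on *SYNE2*, 9 on *MACF1*, 2 on *DST* and 0 on *UTRN*, the median width to 476 bp, and the share of the span covered to 0.424%, 1.69%, 0.226% and 0%, so the order of the genes by peaks and coverage depends on the wide peaks. Without *SYNE2*, all peaks (100%) were of the exon class. No paired analysis of conditions was possible, because the libraries used here come from 1 condition. IP and input libraries are paired within each animal, but no values per animal were listed for the IP, so this pairing could not be used. The ratios between genes were taken within each animal. The peak list gives no depth or score, and no interval can be set for a single peak or FPKM value.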

Other observations

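The gene ontology terms attached to the peaks differed in extent between the 4 genes, with 43 terms for *DST*, 30 for *SYNE2*, 26 for *MACF1* and 7 for *UTRN*. The term "actin binding" was shared by *SYNE2*, *MACF1* and *DST* and was carried by 85 of the 7944 identifiers with a peak and any term (1.07%). The terms of *UTRN* held none of the actin terms. They included RNA-directed DNA polymerase activity, an activity of retroelements, which was attached to 1326 of the 7944 identifiers (16.7%). Terms are given here by symbol, and which of the 2 *UTRN* identifiers carries this activity was not examined.

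Among the other genes with at least 50 exons, peaks were also frequent on *CEP290*, a gene of the ciliary transition zone with 9 peaks in 55 exons at 1.63 ± 0.0454 FPKM (SD, n = 3), and on *DNAH11*, an axonemal dynein gene with 9 in 84 exons at 4.23 ± 0.801 FPKM. Peaks covered 34.9% of *CEP290*, a larger share than of any of the 4 members. Coverage was larger still on an identifier without a symbol (79.0%), on *TPR* (54.5%) and on *AKAP9* (35.2%). *UTRN* had 5 peaks in 76 exons at 2.77 ± 0.660 FPKM. These genes were picked after their values were seen.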
